A study of Mus musculus with 12 samples.

Results

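The mitochondrial ribosomal proteins are the nuclear-encoded proteins of the ribosome that works inside mitochondria. Their genes were taken as every row of the deposited expression table whose symbol is Mrpl or Mrps followed by a number and at most 1 letter, and they were joined to the read counts by Ensembl identifier. This gave 78 genes of 56162 rows, 49 with a large subunit symbol (Mrpl) and 29 with a small subunit symbol (Mrps), on 17 chromosomes. The pattern left out 5 other symbols that begin with Mrpl or Mrps, among them the pseudogenes Mrpl48-ps, Mrps36-ps2 and Mrps36-ps3. It does not reach subunits with other names such as Dap3. RNA sequencing was done on 12 libraries of myofibers from male C57BL/6J mice labelled as 8 weeks old, with 3 libraries in each of 4 groups. These were type I myofibers of the soleus, a slow hindlimb muscle, from treadmill-trained mice, type I myofibers of the soleus from untrained mice, type IIb myofibers of the fast extensor digitorum longus from trained mice, and type IIb myofibers of that muscle from untrained mice. The labels name no transgene or deleted gene in any group. Training was 6 weeks of treadmill running on 5 days a week, 60 min a day at 12 to 16 m/min, and tissue was taken 3 days after the last run. Fibres were freed with 2 mg/ml collagenase at 37 °C, over 90 min for soleus and 60 min for the other muscle, so fibre type, muscle and digestion time cannot be told apart. One piece of each fibre was used to read its myosin heavy chain and the other was lysed for sequencing. The sources used here do not give the number of fibres or animals behind a library, so fewer fibres or nuclei and less RNA per fibre cannot be told apart, and the p-values reflect the spread among libraries alone, some of which may be technical.

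The mitochondrial ribosome translates the messenger RNAs of the mitochondrial genome, all of which encode core subunits of the oxidative phosphorylation complexes. It is built from ribosomal RNAs transcribed in the organelle and from proteins that are made in the cytosol and imported, so its assembly joins the output of both genomes. The small subunit reads the messenger RNA, and the large subunit forms peptide bonds and passes the new chain towards the inner membrane. In mammals many nuclear genes of mitochondrial proteins have promoters bound by NRF-1, by the ETS factor GABP and by YY1, and the coactivator PGC-1alpha, encoded by Ppargc1a, works with such factors in muscle.

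RefSeq promoter windows of 300 bases, 250 before and 50 after the annotated start on build GRCm38.p6, were found for 69 of the 78 genes. Shown here are the windows of the 3 members with the highest mean level and of Mrpl23, which recurred with 2 of them among the smallest p values. The RefSeq window of Mrpl23 holds none of the motifs searched. The Mrpl42 window is chr10:95501900-95502199 on the minus strand, that of Mrps21 is chr3:95871465-95871764 on the minus strand, that of Mrpl30 is chr1:37890227-37890526 on the plus strand, and that of Mrpl23 is chr7:142532782-142533081 on the plus strand. In GENCODE M21 the Mrpl23 gene starts at chr7:142532686, so its RefSeq window lies wholly inside that gene model. The sequence before that start was not searched. Capitals mark a match to NRF-1, ETS or YY1 on either strand.
Mrpl42: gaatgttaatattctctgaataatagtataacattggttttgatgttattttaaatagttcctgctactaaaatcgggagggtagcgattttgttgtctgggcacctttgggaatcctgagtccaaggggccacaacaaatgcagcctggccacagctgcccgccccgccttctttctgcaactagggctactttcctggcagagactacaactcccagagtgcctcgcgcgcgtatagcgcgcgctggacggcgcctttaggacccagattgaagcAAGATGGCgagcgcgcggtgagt
Mrps21: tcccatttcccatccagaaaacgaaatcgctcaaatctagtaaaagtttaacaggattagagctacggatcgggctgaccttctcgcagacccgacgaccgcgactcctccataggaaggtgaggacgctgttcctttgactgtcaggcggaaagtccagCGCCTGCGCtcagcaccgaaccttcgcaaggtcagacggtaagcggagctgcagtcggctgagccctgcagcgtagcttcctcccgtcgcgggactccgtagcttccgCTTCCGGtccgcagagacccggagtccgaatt
Mrpl30: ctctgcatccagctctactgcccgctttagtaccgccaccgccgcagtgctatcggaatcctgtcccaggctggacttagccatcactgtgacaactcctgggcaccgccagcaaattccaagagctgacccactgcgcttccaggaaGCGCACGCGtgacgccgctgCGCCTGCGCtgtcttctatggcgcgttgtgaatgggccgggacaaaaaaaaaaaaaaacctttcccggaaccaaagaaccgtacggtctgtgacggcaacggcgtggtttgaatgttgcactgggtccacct
Mrpl23: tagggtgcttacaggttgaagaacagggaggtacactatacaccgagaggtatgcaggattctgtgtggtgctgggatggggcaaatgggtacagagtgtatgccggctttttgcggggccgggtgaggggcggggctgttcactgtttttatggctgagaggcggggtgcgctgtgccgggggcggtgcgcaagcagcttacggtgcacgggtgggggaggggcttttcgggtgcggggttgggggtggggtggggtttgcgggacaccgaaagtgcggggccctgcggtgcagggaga
The Mrpl42 window has a YY1 match, the Mrps21 window has an NRF-1 and an ETS match, and the Mrpl30 window has 2 NRF-1 matches.

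The NRF-1 motif was searched as GCGCANGCG, the ETS motif as CCGGAAG, the YY1 core as AANATGGC, the element of the estrogen-related receptors as TNAAGGTCA and the TATA box as TATAAA, each on both strands, and overlapping matches were allowed. The ETS motif was in 26 of the 69 genes (37.7%), against 9.93% of all 27025 genes with such windows and 12.9% of the protein-coding ones. The YY1 core was in 21 genes (30.4%), against 6.96% of all genes and 7.46% of protein-coding genes. NRF-1 was in 16 genes (23.2%), against 7.03% and 9.63%. At least one of NRF-1 and ETS was in 36 of the 69 genes, against 20.5% of protein-coding genes. Both were in 6 of the 69, against 1.49% of all genes and 2.10% of protein-coding genes. The TATA box went the other way, in 5 genes (7.25%) against 15.7% of all genes and 14.8% of protein-coding genes. The receptor element was in 0 of the 69, against 1.43% of all genes. Median GC content of the windows was 58% for the members and 52.8% for all genes with such windows, or 56.3% for the protein-coding ones. These shares describe letters in a window, and no factor binding was measured.

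Library totals ran between 8026397 and 24995288 counts. Genes with at least 10 counts ran between 6082 and 11852 per type I trained, 9711 and 14428 per type I untrained, 4291 and 10932 per type IIb trained, and 3636 and 9170 per type IIb untrained library, and reads of mitochondrially encoded genes took 5.86% to 34.7% of a library. Fibre identity followed the labels: the 7 slow contractile markers summed to 37299 to 68453 CPM (counts scaled to the library total) in libraries of type I and 1.05 to 31.4 CPM in those of type IIb fibres, while the 6 fast markers gave 305 to 4389 CPM in slow and 80672 to 157174 CPM in fast fibres. Libraries also differed in genes of other cells. The 8 endothelial markers summed to 0.0718 to 29.5 CPM in type I trained, 7.77 to 577 CPM in type I untrained and 0 to 97.6 CPM in type IIb trained libraries, and all 8 were at 0 in the type IIb untrained ones. The 7 fibroblast markers summed to 2.67 to 115 CPM in type I trained, 19.9 to 8846 CPM in type I untrained, 0.105 to 169 CPM in type IIb trained and 0.103 to 1.18 CPM in type IIb untrained libraries. The part of these cells and of depth in the members' differences was not tested. Fits without such libraries are given below as descriptions.

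All but 1 of the members were measured. Mrpl53, a large subunit gene, had 0 counts in the 12 libraries, and 88.0% of its exon sequence in GENCODE lies within Gm42688 on the same strand. The other 77 passed the expression filter. A count was present in every library for 44 members, and 34 had at least 10 counts in every library. Detection moved with the number of genes a library held. In type I fibres 66, 71 and 77 members had at least 10 counts in the trained libraries and 76, 76 and 77 in the untrained ones. In type IIb fibres 54, 65 and 77 did so in trained libraries and 43, 77 and 68 in untrained ones. The lowest of these, 43 in type IIb untrained library 1, came from the library with the fewest detected genes, 3636, and there 31 members had no count at all. Of all 936 member values 82 were 0, and the zeros were mostly low genes: 0.962% of the values of the 26 highest members were 0, against 20.5% of the values of the 26 lowest. The ranking was by mean FPKM over the same libraries, zeros included, and the 26 lowest include Mrpl53. The plot of members detected per library shows these numbers beside the summed level.

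**Figure D1:**
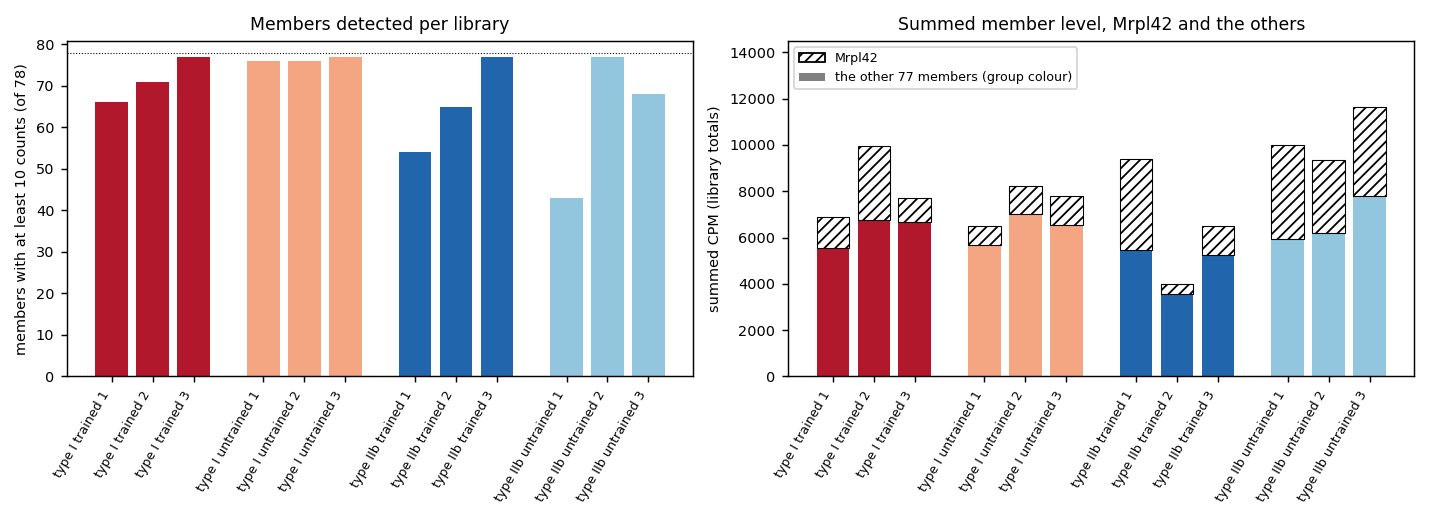
Left, members with at least 10 counts in each of the 12 libraries (vertical axis, number of genes; dotted line, all 78). Right, summed CPM of the members in each library on the library totals, with Mrpl42 hatched above the other 77 members. Type IIb untrained library 1 has the fewest members detected, 43, and the 3 type IIb untrained libraries carry Mrpl42 levels of 3141 to 4051 CPM.

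The order of members was read on the deposited FPKM values (fragments per length and depth), which can be compared between genes. On these values Mrpl42, a large subunit protein with no bacterial counterpart, stood far above the rest. Its FPKM was 1181, 2810.5 and 884 in type I trained libraries, 723, 1044 and 1096 in type I untrained libraries. For type IIb it was 3414, 367 and 1075 in trained libraries and 3532, 2738 and 3350.2 in untrained libraries. Its mean FPKM of 1851 was 36.1 times the median member's 51.2 and ranked 59 among all genes, and it was the highest member in 10 of the 12 libraries. In the other 2, type I untrained 1 and 2, the highest was Mrps21, a small subunit protein, at 879.7 and 1164 FPKM. Mrps21 was second on average at 872 FPKM. No annotated exon of another gene overlaps Mrpl42 (chr10:95480805-95501940) or Mrps21 (chr3:95862634-95871519).

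Below these, 8 members had mean FPKM between 204 and 369. They were Mrpl30 at 369, Mrpl18, a large subunit protein, at 347, Mrps14 of the small subunit at 293, Mrps36 at 262, Mrpl14 at 256, Mrps33 at 250.3, Mrpl23 at 206 and Mrpl33 at 204. Their coefficients of variation over the 12 libraries were 43.3% to 59.9%, wider than the steps between them, so no order among neighbours in this range stands beyond the spread. Mrps36 carries the family's symbol but is known as a subunit of the 2-oxoglutarate dehydrogenase complex of the tricarboxylic acid cycle. At the low end were Mrpl10 at 6.05 FPKM, Mrps18b at 3.71, Mrps2 at 3.45 and Mrps34 at 1.57, with Mrpl53 at 0. Mean FPKM was at least 10 for 69 members, and 26 members were among the 1000 highest genes. The median member had 57.6 FPKM among large subunit symbols and 25.3 FPKM among small subunit symbols. The lengths behind the deposited FPKM were shorter than the summed exons of GENCODE M21 for 75 members, by a median factor of 2.13. Mrpl42 stayed first and Mrps21 second with the GENCODE lengths, but closer together, at 577 and 470 CPM per 1000 bases. Of the 10 highest, 7 were shared between both orders. Mrpl30 moved from rank 3 to 12, Mrpl23 from 9 to 23 and Mrpl33 from 10 to 34, so levels between genes depend on the length used.

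**Figure D2:**
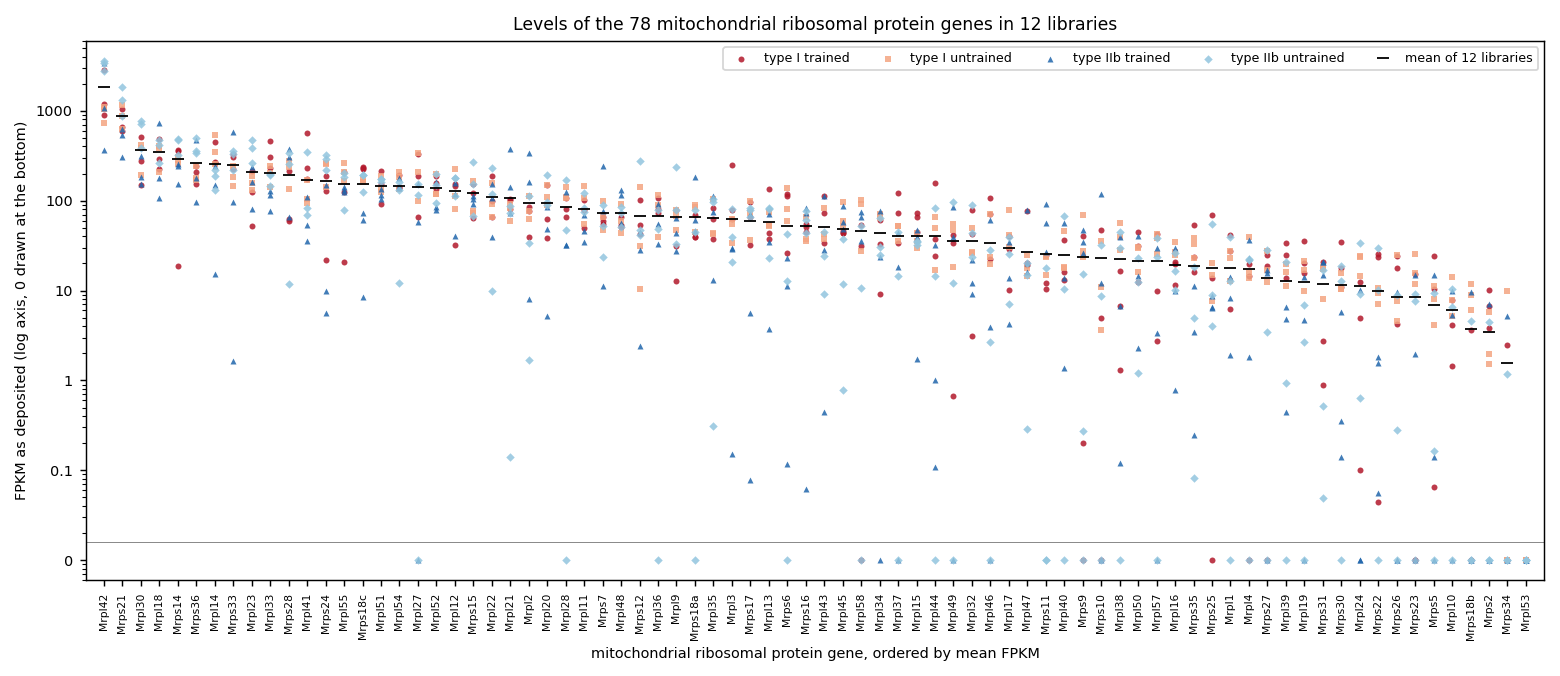
Deposited FPKM of the 78 members (horizontal axis, ordered by mean FPKM; vertical log axis with 0 drawn apart at the bottom), 1 point per library coloured and shaped by group, with the mean of 12 libraries as a bar. Mrpl42 has the highest mean FPKM, 1851, Mrps21 follows at 872, and the points at 0 gather among the low members on the right.

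Members differed in how steadily they were measured. Mrpl51, a large subunit protein found in mitochondria but not bacteria, had the lowest coefficient of variation, 24.4% over the 12 libraries. Its FPKM was 92.9, 151 and 212 in type I trained, 187, 135 and 124 in type I untrained, 104, 114 and 133 in type IIb trained, and 173, 163 and 174 in type IIb untrained libraries, so on FPKM its type IIb trained libraries lay below the type IIb untrained ones. On TMM-scaled CPM that held too, and the untrained fibre types did not overlap either, at 213, 207 and 133 CPM in type I and 294, 306 and 313 CPM in type IIb libraries. Mrpl52 (29.9%), Mrpl54 (33.8%), Mrpl48 (38.0%) and Mrpl11 (40.9%), all large subunit genes, were next. The median member varied by 73.5%. The most variable were Mrps34 (196%), Mrps10 (149%), Mrps25 (119.6%), Mrps18b (119.1%) and Mrpl44 (112%). Mrps34 had a count in 4 libraries, Mrps18b in 6, Mrps10 in 9, and Mrps25 and Mrpl44 in 11.

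The counts do not mark strand, so reads in shared exons cannot be told apart. Exons of another annotated gene overlap 33 of the 78 members. For 3 of them the overlap covers more than 50% of the exon sequence. These are Mrpl53, Mrps34 (77.8%, shared with Mapk8ip3 and Nme3) and Mrps25 (69.8%, shared with Nr2c2 on the other strand). Among the other members given with values here, the widest overlaps are those of Mrps18b, which shares 30.5% with Gm16279 on the other strand, Mrpl47 (24.2%, Ndufb5 and Actl6a) and Mrps18c (23.2%, Gm43511). Mrps6 shares 19.9% with Gm49711 and Slc5a3, Mrps24 15.4% with Urgcp, Mrpl10 14.1% with Gm11574 and Mrpl12 13.1% with Gm16755, and the values of all 7 carry that uncertainty. Mrpl48, Mrps36 and Mrps10 also have pseudogene rows, with 89, 85 and 58 counts over all libraries, against 4995 counts for Mrps10 itself. Pseudogene rows of Mrps21, Mrpl30 and Mrpl45 held 0 counts, and that of Mrpl36 held 1.

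Summed over the family, the level was 6885, 9961 and 7703 CPM in type I trained libraries and 6514, 8223 and 7783 CPM in type I untrained libraries. It was 9392, 3977 and 6487 CPM in type IIb trained libraries and 10001, 9334 and 11633 CPM in type IIb untrained libraries. The untrained type IIb libraries were thus all above the untrained type I ones, and the trained and untrained libraries of each fibre type differed less clearly, with overlap in type I and with 1 trained type IIb library above 1 untrained one. Mrpl42 alone made up 21.7% ± 9.76 of the members' counts in type I trained, 14.5% ± 1.71 in type I untrained, 23.8% ± 16.1 in type IIb trained and 35.7% ± 4.15 in type IIb untrained libraries (SD, n = 3 each). Without Mrpl42, a split made after its level was seen, the other 77 members summed to 6319 ± 684 CPM in type I trained, 6413 ± 677 CPM in type I untrained, 4762 ± 1050.5 CPM in type IIb trained and 6645 ± 1000 CPM in type IIb untrained libraries. On that scale the untrained type I and type IIb groups overlapped. TMM-scaled library sizes assume that most genes do not differ between libraries. With them the median log2 fold change over all genes was still 0.85 between untrained type I and type IIb fibres. On this scale the other 77 summed to 4939 ± 1453 CPM in type I untrained, against 7356 ± 1207 CPM in type IIb untrained libraries. These groups overlapped here too, at 3970.5, 6609 and 4238 CPM in type I untrained and 6252, 7172 and 8644 CPM in type IIb untrained libraries.

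In type I fibres, no member passed the test for training. With edgeR's quasi-likelihood test fitted over all 11747 genes, 0 members had an adjusted p under 0.05, against 0% of all genes, and 0 had an unadjusted p under 0.05, against 345 genes in all. DESeq2 called 0 members beside 0.502% of all genes, and limma-voom with quality weights 0 members beside 0.0341%. Trained and untrained libraries did not overlap for 7 members, 3 higher (Mrpl41, Mrps33, Mrpl39) and 4 lower (Mrps18b, Mrpl38, Mrps23, Mrpl34), or 7 of 77 beside 11.7% of all genes. The median log2 fold change of members was 0.25, with 49 of 77 positive, and that of all genes was -0.28, with 42.5% positive. The members' median turned to -0.11 with the median-ratio (RLE) scaling, which moved the median of all genes by -0.29.

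The member with the smallest p for training in type I fibres was Mrpl42. Its level was 1633, 3845 and 629 CPM (TMM-scaled, as are all single-gene CPM from here on) in trained libraries, against 583, 1129 and 834 CPM in untrained libraries. Trained library 3 lay inside the untrained range and trained library 2 far above it. The log2 fold change was 1.26 ± 0.62 (SE, adjusted p = 1). Mrpl41, another large subunit protein without a bacterial counterpart, had 396, 121 and 83.4 CPM in trained libraries, against 39.0, 58.2 and 66.1 CPM in untrained libraries, and these did not overlap. Its log2 fold change was 1.88 ± 0.96 (adjusted p = 1), with 1 trained library well above the rest. Mrpl33, a large subunit protein conserved from bacteria, had 301, 590.3 and 204 CPM in trained libraries and 153, 245 and 100.3 CPM in untrained libraries. Its lowest trained library was below the highest untrained one, and its log2 fold change was 1.14 ± 0.63 (adjusted p = 1). Mrpl3, conserved from bacteria and sited near the peptidyl transferase centre, had 417, 128 and 54.2 CPM in trained libraries, against 32.6, 82.6 and 50.3 CPM in untrained libraries (1.86 ± 1.26, adjusted p = 1).

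In type IIb fibres, again no member passed the test for training. By edgeR 0 members had an adjusted p under 0.05, against 0% of all genes. Of the 77 members 3 had an unadjusted p under 0.05, all lower in trained fibres. Over all 11747 genes 965 did, 807 higher and 158 lower. DESeq2 called 0 members, against 3.1% of all genes, and limma-voom 0, against 0.00851%. Libraries did not overlap for 13 members, 3 higher (Mrpl45, Mrps11, Mrps9) and 10 lower (Mrps21, Mrpl30, Mrps24, Mrpl23, Mrps18c, Mrpl32, Mrps14, Mrpl20, Mrpl11, Mrpl51), or 13 of 77 beside 4.73% of all genes. The median log2 fold change was -0.17 over members, with 45 of 77 negative, and 0.36 over all genes, with 58.0% of them positive. With RLE scaling the members' median was -0.15. It was -0.45 without the 2 libraries with the fewest genes, type IIb trained 1 and untrained 1, where edgeR called 0 members. It was -0.64 without the 3 libraries highest in endothelial markers, type I untrained 1 and 3 and type IIb trained 3.

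Mrps21 was at 303, 176 and 233 CPM in trained type IIb libraries, against 554, 404 and 814 CPM in untrained ones. Each trained library was below each untrained one. The log2 fold change was -1.31 ± 0.59 (adjusted p = 0.597). Mrpl30 of the large subunit had 176, 174 and 272 CPM in trained libraries, against 628, 351 and 614 CPM in untrained libraries, also without overlap (-1.36 ± 0.63, adjusted p = 0.597). Mrps24, a small subunit protein, had 4.65, 9.65 and 109.8 CPM in trained libraries, against 203, 169 and 240.1 CPM in untrained libraries, and its log2 fold change of -2.30 ± 1.09 (adjusted p = 0.597) drew mainly on the low values of 2 trained libraries. Mrpl45, a large subunit protein at the exit of the peptide tunnel that attaches the ribosome to the inner membrane, went the other way. It had 104, 104 and 139.7 CPM in trained libraries, against 1.19, 63.5 and 19.1 CPM in untrained libraries (2.05 ± 1.17, adjusted p = 0.654). The lowest of these came from type IIb untrained library 1, in which few members were detected.

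**Figure D3:**
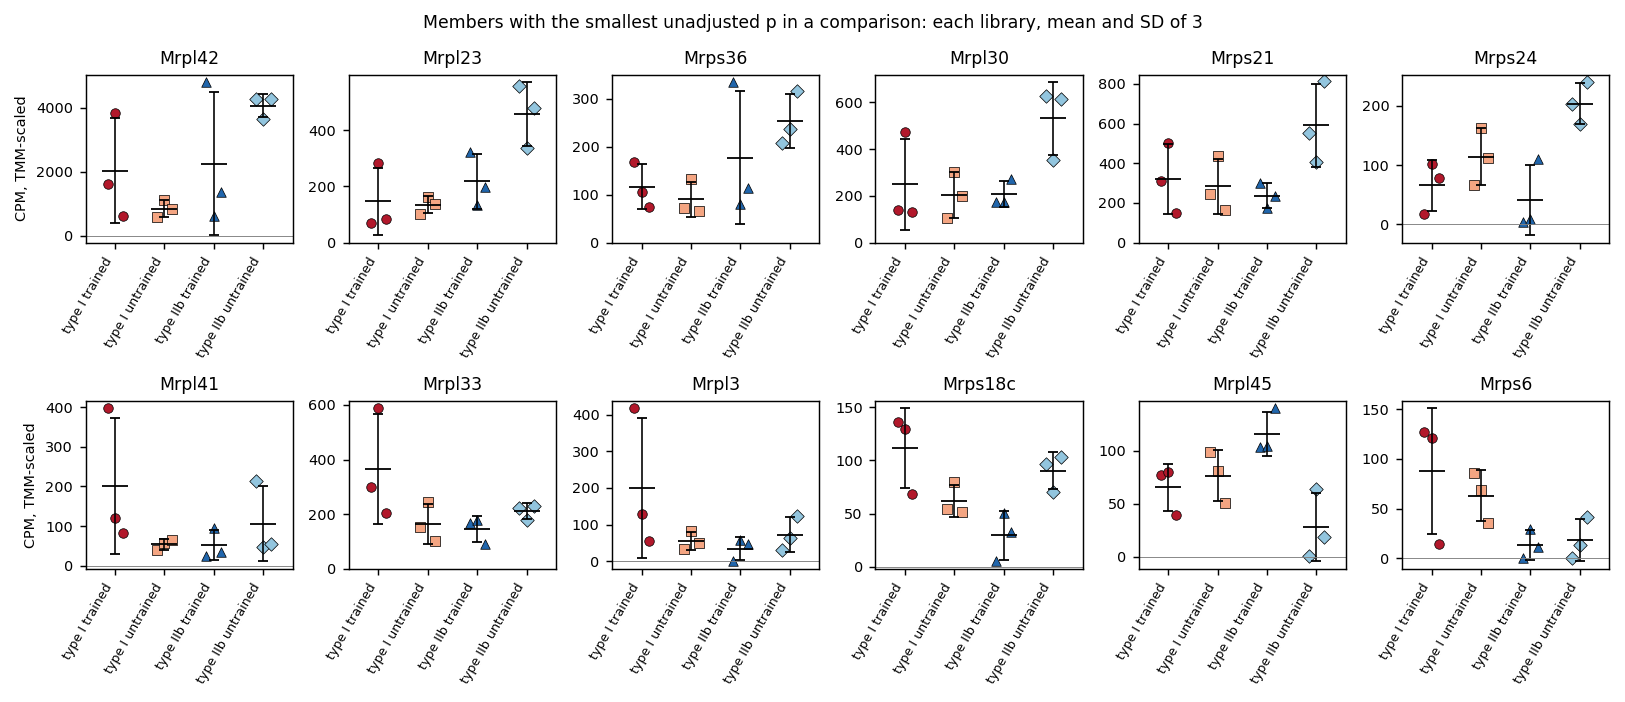
TMM-scaled CPM (vertical axes, linear) of 12 members, each among the 4 with the smallest unadjusted p in a pairwise comparison or in fibre type averaged over training, 1 panel per gene, with 1 point per library in the 4 groups, the mean as a long bar and the SD of 3 libraries as whiskers. Mrpl42, Mrpl23 and Mrpl30 have their highest mean in the type IIb untrained group, where Mrpl42 averages 4059 CPM, and Mrpl41, Mrpl33 and Mrpl3 each have 1 type I trained library far above the others.

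Between fibre types of untrained mice, the 4 members with the smallest p had less in every type I library than in any type IIb library, but none passed the test. This comparison and the one for training in type IIb fibres use the same untrained type IIb libraries, and it shares the untrained type I libraries with the one for training in type I fibres. By edgeR 0 members were called, against 0.46% of all genes. Of the 77 members 3 had an unadjusted p under 0.05 (Mrpl42, Mrpl23 and Mrpl30), all lower in type I. Over all 11747 genes 2053 did, 1825 higher and 228 lower in type I. DESeq2 called 0 members, against 8.78% of all genes. limma-voom with quality weights called 6 of 77, beside 17.9% of all genes, with Mrpl42, Mrpl23, Mrpl30, Mrps21 and Mrps36 lower and Mrps11 higher in type I. Mrps11 had 14.3, 12.0 and 13.2 CPM in type I, against 0, 17.4 and 0 CPM in type IIb libraries (log2 fold change 5.75 by limma-voom). Libraries did not overlap for 11 members, 1 higher in type I (Mrps23) and 10 lower (Mrpl42, Mrpl23, Mrpl30, Mrps36, Mrps14, Mrpl51, Mrps33, Mrps24, Mrps16, Mrpl15), or 11 of 77 beside 27.7% of all genes. The median log2 fold change was -0.11 over members and 0.85 over all genes. With RLE scaling the members' median turned to 0.15, and that of all genes moved by 0.32.

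Mrpl42 had the smallest p of the members here. It had 583, 1129 and 834 CPM in type I, against 4264, 3643 and 4270.2 CPM in type IIb libraries. The mean of 848 ± 273 CPM in type I stood beside 4059 ± 360.0 CPM in type IIb (SD, n = 3 each), and the log2 fold change was -2.26 ± 0.64 (adjusted p = 0.197). Over 22 alternatives this fold change kept its sign and ran between -2.61 and -1.76, with adjusted p between 0.00258 (limma-voom) and 1. Mrpl23, a large subunit protein near the exit of the peptide tunnel, had 102, 163 and 138 CPM in type I, against 559, 336 and 480.3 CPM in type IIb libraries (-1.77 ± 0.66, adjusted p = 0.230). Mrpl30 had 106, 304 and 201 CPM in type I, against 628, 351 and 614 CPM in type IIb libraries (-1.38 ± 0.63, adjusted p = 0.261). Mrps36, the dehydrogenase complex subunit, had 72.3, 133 and 64.9 CPM in type I, against 207, 237 and 316 CPM in type IIb libraries (-1.49 ± 0.74, adjusted p = 0.307). Untrained type I libraries also held more endothelial, mural and fibroblast transcripts than untrained type IIb libraries. Without the 3 libraries highest in endothelial markers, type I untrained 1 and 3 and type IIb trained 3, the members' median was 0.04. That fit left 1 untrained type I library, so it cannot show what part such cells had in these differences.

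Between fibre types of trained mice, members lay on both sides and none passed the test. By edgeR 0 members were called, against 0.536% of all genes, and 0 had an unadjusted p under 0.05, against 943 of 11747 genes. DESeq2 called 0 members while it called 2.95% of all genes, and limma-voom called 0 members while it called 1.5%. Libraries did not overlap for 6 members higher in type I (Mrpl33, Mrps18c, Mrps30, Mrps35, Mrpl39, Mrps12) and 6 lower (Mrps11, Mrps9, Mrps31, Mrps18a, Mrpl58, Mrpl45), or 12 of 77 beside 10.5% of all genes. The median log2 fold change was 0.12 over members, or -0.01 with RLE scaling, and 0.21 over all genes. Mrpl33 had 301, 590.3 and 204 CPM in type I, against 168, 180.3 and 91.9 CPM in type IIb libraries, without overlap (1.31 ± 0.63, adjusted p = 0.618). Mrps18c, a small subunit protein conserved from bacteria, had 136, 129.9 and 68.0 CPM in type I, against 5.04, 50.8 and 32.3 CPM in type IIb libraries, also without overlap (1.92 ± 1.04, adjusted p = 0.659). Mrpl41 and Mrpl3 came next in p, with log2 fold changes of 1.96 ± 0.97 (adjusted p = 0.621) and 2.52 ± 1.29 (adjusted p = 0.631), and both rested on high values in type I trained library 1. Mrpl42, far apart between untrained fibre types, had a log2 fold change of -0.15 ± 0.61 between trained ones.

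Averaged over both fibre types, training gave 0 members called by edgeR, against 0% of all genes. Unadjusted p was under 0.05 for 0 members, against 449 of 11747 genes. No member's 6 trained libraries lay apart from its 6 untrained ones (0 of 77, beside 0.00851% of all genes). By DESeq2, too, 0 members were called, beside 1.93% of all genes, and limma-voom called 0 members and 0% of all genes. The members' median was 0.02, or -0.14 with RLE scaling, which moved the median of all genes by -0.14. The smallest p belonged to Mrps24, with a log2 fold change of -1.55 ± 0.75. Mrpl47, a large subunit protein conserved from bacteria, had 1.69 ± 1.00, Mrpl21 of the large subunit 1.38 ± 0.90, and Mrps21 -0.57 ± 0.41 (adjusted p = 1.00 for all 4). For Mrpl47 the values leaned on library 1 of each trained group, at 166 and 172 CPM, against 0.542 to 40.5 CPM in the 6 untrained libraries.

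Averaged over training, fibre type gave 0 members called by edgeR, against 1.93% of all genes. Of the 77 members 2 had an unadjusted p under 0.05, both lower in type I. Over all 11747 genes 1985 did, 1615 higher and 370 lower in type I. Of all genes DESeq2 called 9.35%, with 0 members among them. limma-voom called 3 members of 77, all higher in type I (Mrps2, Mrps26 and Mrps35), beside 9.54% of all genes in either direction. No member's 6 type I libraries lay apart from its 6 type IIb libraries (0 of 77, beside 3.57% of all genes). The median over members was -0.03, or 0.08 with RLE scaling, beside 0.60 over all genes. Mrpl42 had a log2 fold change of -1.20 ± 0.44 (adjusted p = 0.138), Mrpl23 -1.17 ± 0.46 (adjusted p = 0.184) and Mrps36 -1.05 ± 0.51 (adjusted p = 0.314). Mrps6, a small subunit protein conserved from bacteria, was the only one of the 4 with the smallest p that was higher in type I. It had 127, 121 and 14.4 CPM in type I trained and 85.7, 68.3 and 35.0 CPM in type I untrained, against 0.129, 29.9 and 10.9 CPM in type IIb trained and 0, 13.2 and 41.6 CPM in type IIb untrained libraries (2.23 ± 1.29, adjusted p = 0.434).

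The difference between the training effects, type I minus type IIb, was tested as an interaction. By edgeR 0 members were called, against 0% of all genes. Of the 77 members 2 had an unadjusted p under 0.05, both positive. Over all 11747 genes 1050 did, 113 positive and 937 negative. DESeq2 called 0 members and 3.32% of all genes, and limma-voom called 0 members and 0% of all genes. Mrpl42 had an interaction of 2.11 ± 0.87 on the log2 scale (adjusted p = 0.480), made of the training changes of 1.26 ± 0.62 in type I and -0.85 ± 0.61 in type IIb fibres. In trained type IIb fibres it had 4802, 616 and 1361 CPM, and library 1 lay above all 3 untrained type IIb libraries. Mrpl41 had 2.91 ± 1.35 (adjusted p = 0.541), Mrpl33 1.67 ± 0.89 (adjusted p = 0.641) and Mrpl30 1.65 ± 0.88 (adjusted p = 0.647). The median over members was 0.45, or 0.10 with RLE scaling, beside -0.68 over all genes, and RLE moved the median of all genes by -0.33. The members' median SE was 1.97 here and 1.39 to 1.41 in the pairwise comparisons, so for the median member a log2 difference of that size was within 1 SE. The plot of fold changes in the 7 comparisons shows this spread.

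**Figure D4:**
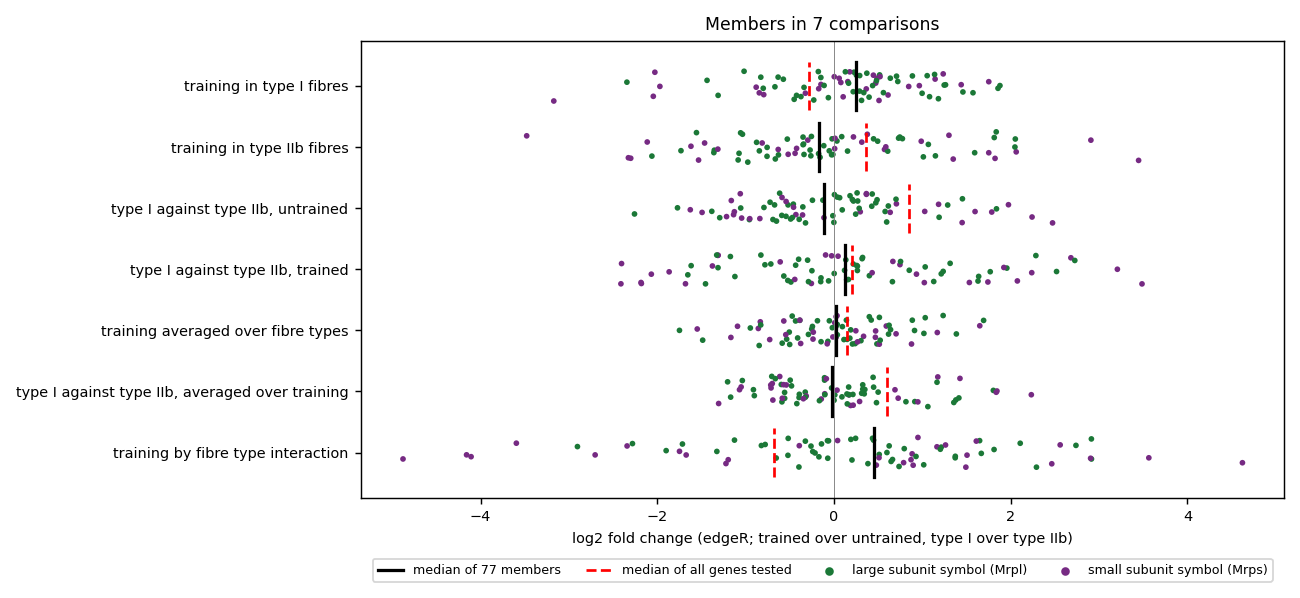
Log2 fold changes from edgeR (horizontal axis) of the 77 tested members in 7 comparisons (rows), 1 point per gene, green for large and purple for small subunit symbols, scattered vertically for visibility. The black line is the members' median and the dashed red line the median of all genes tested, which were not matched to the members for level. In this fit they part most between untrained fibre types (-0.11 and 0.85) and in the interaction (0.45 and -0.68). With the 22 alternatives included, members' minus all genes' median ran between -3.90 and 0.04 in the first and -0.58 and 2.35 in the second.

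By edgeR and DESeq2, members with a known special role showed no call either. limma-voom called Mrps36 between untrained fibre types, as given above. The 3 paralogs of one bacterial small subunit protein differed in level: Mrps18c averaged 153 FPKM, Mrps18a, which sits in the large subunit, 65.1 FPKM and Mrps18b 3.71 FPKM. Mrps18b had counts in 1 type I trained, 3 type I untrained, 1 type IIb trained and 1 type IIb untrained library. Mrpl12, which binds the mitochondrial RNA polymerase, had 108 ± 75.5 CPM in type I trained and 120.2 ± 88.6 CPM in type I untrained, and 143 ± 95.1 CPM in type IIb trained and 181 ± 38.2 CPM in type IIb untrained libraries (SD, n = 3 each), with log2 fold changes of -0.15 ± 0.82 and -0.34 ± 0.82 for training. Mrps12, at the decoding centre, had 31.3, 39.0 and 38.2 CPM in type I trained and 4.50, 18.1 and 57.1 CPM in type I untrained ones. Type IIb fibres had 1.81, 25.1 and 29.9 CPM in trained and 30.3, 29.0 and 187 CPM in untrained libraries, so 1 untrained library of each fibre type held the highest value.

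Mrps30, named for the small subunit but sited in the large one, had 46.9, 148 and 39.3 CPM in type I trained, against 1.55, 0.728 and 23.0 CPM in type IIb trained libraries, without overlap (3.21 ± 1.92, adjusted p = 0.718). Mrpl58, a peptidyl-tRNA hydrolase that frees stalled chains, had the opposite order, with 0, 35.6 and 31.8 CPM in type I trained, against 87.0, 50.1 and 69.9 CPM in type IIb trained libraries (-1.62 ± 1.91, adjusted p = 0.964). Human MRPL3, MRPL44 and MRPS22 are mutated in inherited cardiomyopathy. Mouse Mrpl44 had 1.42, 0.182 and 41.4 CPM and Mrps22 4.27, 0.182 and 4.55 CPM in type IIb trained fibres. In type I trained fibres Mrpl44 had 216, 52.0 and 17.2 CPM and Mrps22 68.8, 0.118 and 32.5 CPM, so single libraries of both groups were near 0 or far above the rest. Mrps5, whose worm counterpart affects lifespan, was low in all groups, with means of 5.57 to 13.9 CPM.

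Related genes were counted with the same fit. Of the 13 messenger genes of the mitochondrial genome, which the mitochondrial ribosome translates, 0 were called in any of the 7 comparisons. All 13 had positive fold changes for training in type I fibres (median 1.13), beside the members' 49 of 77 and 42.5% of all genes. On library totals their sum was 116585, 245255 and 39576 CPM in trained and 107360, 113256 and 117316 CPM in untrained type I libraries. Trained library 2 thus lay above the untrained range, library 3 below it and library 1 inside it. For type I against type IIb in untrained mice all 13 had negative fold changes (median -1.73), while 66.5% of all genes were positive. Unadjusted p was under 0.05 for 7 of the 13, beside 2053 of 11747 genes in either direction. The mitochondrial ribosomal RNAs mt-Rnr1 and mt-Rnr2 had training log2 fold changes of 1.04 ± 0.80 and 0.37 ± 0.74 in type I and -0.18 ± 0.80 and 0.32 ± 0.74 in type IIb fibres. Of 85 tested cytosolic ribosomal proteins, 83 were positive for training in type I fibres (median 0.69), beside 42.5% of all genes, and 0 were called. On library totals their sum was 26557, 42224 and 33004 CPM in trained and 21452, 35529 and 22447 CPM in untrained type I libraries. The groups overlapped, and genes of the same libraries are not independent of each other. Of the 5 subunits with other symbols 0 were called. One of them, Chchd1 of the small subunit, had 226, 343 and 252 CPM in type I untrained, against 850.0, 563 and 584 CPM in type IIb untrained libraries (-1.28 ± 0.53, adjusted p = 0.233). Assembly and modification factors (24 tested), translation factors (13), transcription factors and polymerase of the organelle (5), aminoacyl-tRNA synthetases (19) and regulators (9) also had 0 calls by edgeR in the 7 comparisons. Ppargc1a had log2 fold changes of 0.01 ± 1.59 in type I and 0.08 ± 1.59 in type IIb fibres for training.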

How the data were processed

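Counts and FPKM values were deposited by the authors for 12 libraries. Counts in the deposited table are raw whole numbers for each gene. The deposited FPKM tables hold values scaled by the authors to gene length and library total. Each nonzero member FPKM equalled its count divided by the listed length and the library total to within 0.1% for 89.1% of values, with a largest deviation of 0.207%, and the per-sample tables equalled the series table in all 12 libraries. TopHat2, a spliced-read aligner, and mm10 are listed per the submitters' processing notes. Of the counting program, annotation and filters the sources used here say nothing. Per the labels' protocols, SMART-Seq HT was used for complementary DNA and Nextera XT for libraries, so strand is not kept. Amplified reads carry no molecular identifiers, and 1 count was worth 0.0400 to 0.125 CPM. No per-sample column was left unused (0).

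The main test was edgeR's quasi-likelihood test (edgeR 4.0.16 in R 4.3.3, robust fit, TMM scaling, 1 mean per group over all 12 libraries), run on the counts of all genes after edgeR's expression filter (minimum count 10, minimum total 15). P values were adjusted over 11747 genes by Benjamini-Hochberg, and a gene was called under 0.05. SE was taken as the size of the log2 fold change over the square root of F. Summed levels are CPM of library totals, and single-gene levels are CPM on TMM-scaled sizes. The scripts were tested on simulated data. Alternatives were RLE size factors, no filter, nuclear library sizes, DESeq2 1.42.0, limma 3.58.1 (voom with quality weights, and log2 of FPKM plus 1 or 0.1), a replicate block and leaving out libraries. Overlaps come from GENCODE M21 and promoters from RefSeq.

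The members and gene lists were chosen with earlier results of these data known. Named were the 4 members with the smallest unadjusted p in each comparison, the 10 highest and 5 lowest by mean FPKM, the 5 least and 5 most variable, and members with a known special role. Members not overlapping between groups, those called by limma-voom and Chchd1 were named outside that rule, after their values were seen.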

Additional observations from a re-analysis of the deposited data

How the results depend on the processing

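Across 22 alternatives per comparison, the 28 fold changes named by smallest p kept their direction, and edgeR called 0 members in each of its settings, leaving out each library in turn included. limma-voom with quality weights was the exception among tools: it called 6 members between untrained fibre types and 3 for fibre type averaged over training, and the cause was not tested. Its weights ran between 0.422 for type IIb untrained library 1 and 3.71 for type I untrained library 1. The median over members between untrained fibre types was 1.02 on log2(FPKM + 1), beside 1.19 over all genes tested, and 1.45 on log2(FPKM + 0.1). On the same 2 scales the members' median was 0.64 and 0.68 between trained fibre types. For fibre type averaged over training it was 0.79 and 1.03. These scales are not adjusted for composition. The summed level with mitochondrially encoded counts left out of the library size was 10653 CPM in type I trained, 9140.1 CPM in type I untrained, 9071 CPM in type IIb trained and 14304 CPM in type IIb untrained libraries. With TMM-scaled sizes it was 8319, 5833, 8164 and 11427 CPM in the same order.

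Leaving out 1 library at a time, the members' median ran between -0.02 and 0.50 for training in type I, -0.55 and 0.10 for training in type IIb, -0.34 and 0.15 between untrained and -0.19 and 0.35 between trained fibre types, -0.16 and 0.14 for training averaged, -0.24 and 0.12 for fibre type averaged, and -0.11 and 0.91 for the interaction. Libraries were not treated as pairs, because the labels do not say what a replicate number marks. Deviations of 18 same-numbered pairs correlated between -0.12 and 0.20 (median 0.0047), and 4 exceeded 0.1. Those of 36 differently numbered pairs ran between -0.19 and 0.21 (median -0.018), and 2 exceeded 0.1. With 3 libraries in a group these values cannot settle whether same-numbered libraries shared an animal or a day. With the replicate block 0 members were called in the 7 comparisons, and the medians were 0.24, -0.35, -0.05, 0.13, -0.07, 0.20 and 0.63 in the order training in type I, training in type IIb, fibre type in untrained, fibre type in trained, training averaged, fibre type averaged and interaction. Zeros limited the low members most, at 20.5% of the values of the 26 lowest, Mrpl53 included. They did not follow library totals alone: 31 members were at 0 in type IIb untrained library 1, with 9707337 counts, and 8 in the library with the fewest counts, type IIb trained library 2, with 8026397.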
